A study of Mus musculus with 4 samples.

Results

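The 33 genes described here are antiviral interferon-stimulated genes, read here in AEC2, type II cells of the alveolar epithelium, which make surfactant and renew the mouse alveolus. A list of 35 such genes was matched to the array's platform annotation, and all probe sets annotated with that single symbol were averaged per gene. This gave 56 probe sets for 33 of the 35 genes, among 18194 genes on the array. Isg15 and Ifi44 had no probe set with that single symbol in the annotation used and were not analysed here. The study profiled flow-sorted AEC2 on 4 Affymetrix arrays to ask how hyaluronan and the innate immune receptor TLR4 bear on alveolar stem cell renewal and fibrosis. The groups were wild type untreated, TLR4-/- untreated, wild type 4 days after bleomycin and TLR4-/- 4 days after bleomycin, a drug that breaks DNA and injures the lung epithelium. Each group was 1 array of RNA from cells pooled from 4 to 5 mice, amplified before labelling, so no group has a replicate. Strain, sex, age, the allele and the bleomycin dose are not given in the labels used here.

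Interferons are secreted cytokines that cells release after sensing foreign or misplaced nucleic acid. Type I and type III interferons bind their receptors, activate JAK kinases, and send a complex that includes STAT2 and IRF9 to a short DNA element, the interferon-stimulated response element (ISRE). The genes it switches on block viral entry, translation and assembly, sense more nucleic acid, and feed back on the pathway itself. In the lung, epithelial cells and macrophages both make this response.

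Values are log2 signals as deposited. Array medians over all probe sets lay between 6.93 and 6.98, and pairs of arrays had a Pearson's r between 0.973 and 0.992 over the probe sets, which do not replicate one another. The 14 measured AEC2 markers lay between 9.28 and 14.06 on the 4 arrays, all above the median gene. Tlr4 has 4 probe sets. In TLR4-/- pools 1 of them was lower, 3.09-fold without treatment and 6.42-fold after bleomycin, 2 were higher, and 1 was dim (3.89 to 4.05). Their position against the deletion was not known here, and a probe set outside it checks nothing.

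After bleomycin, antiviral genes were higher in the sorted cells of both genotypes. All 33 measured members were above their untreated level in wild type, as were 50.3% of all genes, and all 33 in TLR4-/-, as were 45.7% of all genes. Both day 4 arrays lay above both untreated arrays for 31 of the 33 members, against 23.1% of all genes. The exceptions were Ifih1 and Oasl1. At least 2-fold higher signals were seen for 12 members in wild type (1.82% of all genes) and 8 in TLR4-/- (1.88% of all genes), and 7 of these were shared by both genotypes (0.989% of all genes). The member median was 0.81 in wild type, where the median of all genes was 0.00, and 0.80 in TLR4-/-, where it was -0.03.

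The bleomycin effect across both genotypes was tested with limma in an additive model of treatment and genotype. Of the 33 members, 14 rose and 0 fell at an adjusted p under 0.05, whereas 1.75% of all genes rose and 0.264% fell. The other 19 had limma adjusted p-values from 0.0642 to 0.382, and 30 of the 33 had an unadjusted limma p under 0.05, as did 17.8% of all genes. In a fit of treatment alone, 3 members rose, Usp18, Herc6 and Ifi27l2a (limma adjusted p = 0.0365, 0.042 and 0.0361), and 11 of the 14 no longer passed. The calls also rest on both day 4 arrays. Without the wild-type day 4 array limma called 0 members and 0 genes (25 members and 2001 genes at an unadjusted p under 0.05), and without the TLR4-/- day 4 array also 0 and 0 (21 and 1178). In these 3-array fits, which have no genotype term, the spread is that of the 2 untreated arrays alone.

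**Figure D1:**
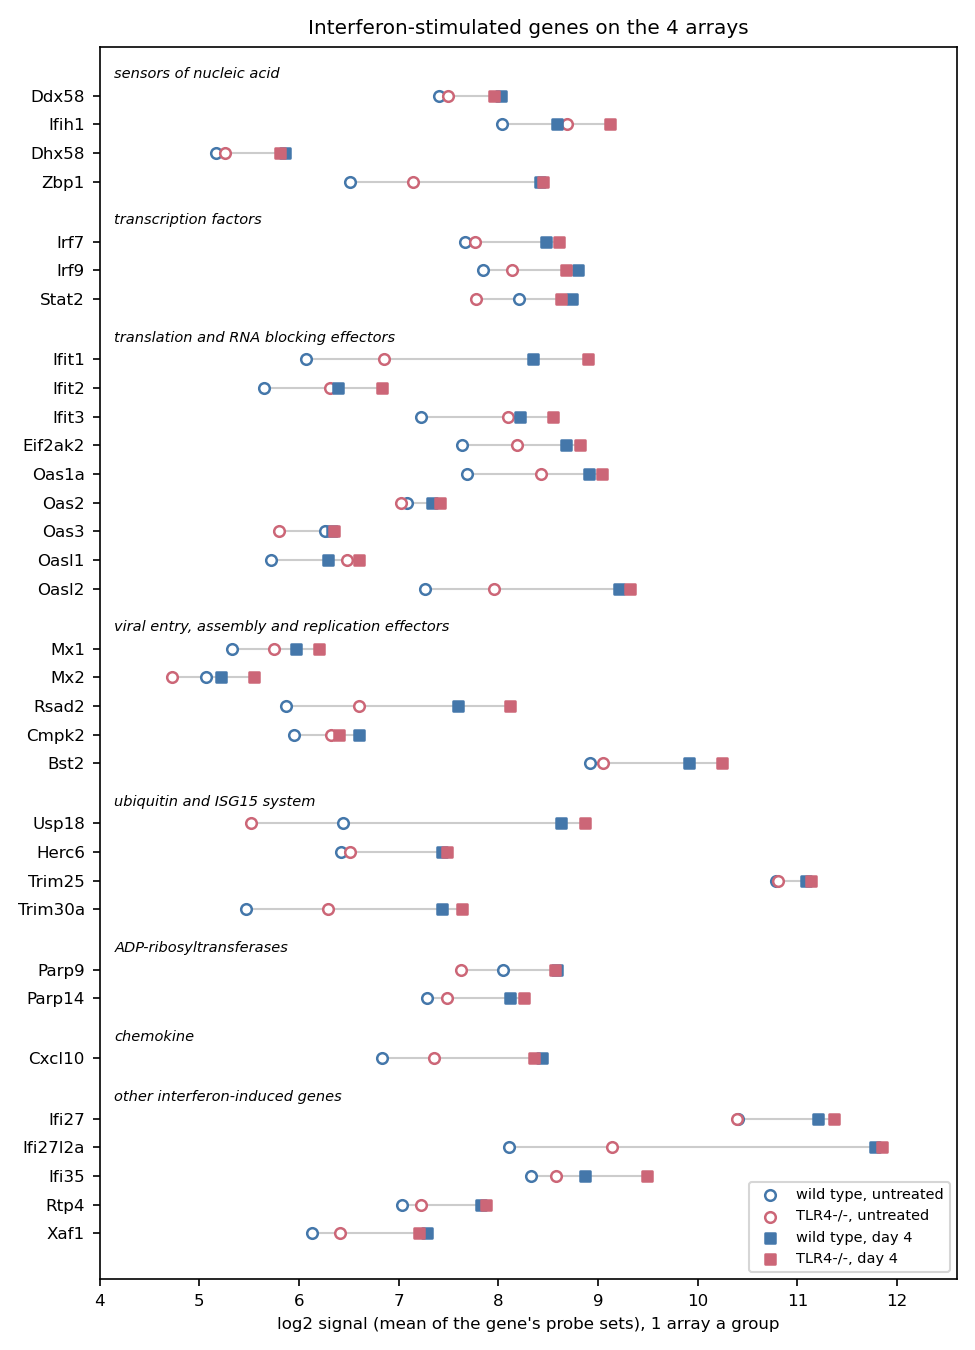
Log2 signal of each of the 33 measured members (x axis) on the 4 arrays, grouped by role. Open circles are untreated pools, filled squares are day 4 pools, blue is wild type and red is TLR4-/-, and each point is 1 array. The squares lie to the right of both circles for 31 members, and the untreated TLR4-/- circle lies right of the wild-type one for 26.

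The promoters of several members carry the letters of the ISRE, the element through which interferon acts on such genes, and are shown for that reason. RefSeq promoter windows (GRCm38.p6, 250 bases before to 50 after the annotated start) were found for 22 of the 33 measured members. The ISRE core, searched on both strands as GAAA, any 2 bases and GAAA, occurred in 12 of these 22. It occurred in 3.99% of all 27025 genes with windows of the same length, and in 3.44% of the 32851 windows. These stretches run 5′ to 3′ on the gene's own strand, end upstream of the start, and have the matches in capitals. They were taken for the 6 members with the largest bleomycin effect among those with a match before the start, and for the member with the smallest.
Ifit1: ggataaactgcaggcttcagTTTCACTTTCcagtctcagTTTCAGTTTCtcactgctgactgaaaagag
Trim30a: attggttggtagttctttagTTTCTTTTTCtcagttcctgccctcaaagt
Rsad2: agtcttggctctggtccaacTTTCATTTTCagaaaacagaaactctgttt
Cxcl10: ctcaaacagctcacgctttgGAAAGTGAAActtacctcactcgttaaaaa
Bst2: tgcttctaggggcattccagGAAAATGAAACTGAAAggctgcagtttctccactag
Oas1a: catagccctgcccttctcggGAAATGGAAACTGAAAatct
Oas3: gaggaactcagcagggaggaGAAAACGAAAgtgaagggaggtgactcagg

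The Ifit1 stretch is chr19:34640765-34640833 on the plus strand and holds 2 separate matches, the first base of the stretch lying 124 bases upstream of the start. The Trim30a stretch is chr7:104465200-104465249, the Rsad2 stretch chr12:26456543-26456592 and the Cxcl10 stretch chr5:92349073-92349122, all on the minus strand with 1 match each. The Bst2 stretch (chr8:71537567-71537622) and the Oas1a stretch (chr5:120907526-120907565), both on the minus strand, each hold 2 matches that overlap into one run. The Oas3 stretch is chr5:120777705-120777754 on the minus strand. The effect ranges of members with and without a match overlapped. The bleomycin effect had a median of 0.88 (range 0.32 to 2.16) in the 12 with a match and of 0.74 (range 0.32 to 1.66) in the 10 without. The 11 members with no window, which could not be read, had a median of 0.74 (range 0.32 to 3.19). They include Ifi27l2a and Usp18, the members with the largest effects. Oasl2, Herc6, Xaf1 and Irf7 rose without a match in this window. These matches are letters in a reference window, not measured binding.

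The sensors of nucleic acid were higher after bleomycin, and 1 of the 4 rose by the limma test. Zbp1, a sensor of Z-form nucleic acid that can trigger cell death, had signals of 6.51 in untreated wild type, 7.15 in untreated TLR4-/-, 8.42 in day 4 wild type and 8.45 in day 4 TLR4-/-. Both day 4 pools were thus well above both untreated pools and nearly equal to each other. Zbp1 rose by 1.60 ± 0.18 (SE, limma, average of 2 pairs of arrays, adjusted p = 0.025). Ddx58, which encodes the RNA sensor RIG-I, read 7.41 and 7.50 untreated and 8.02 and 7.96 at day 4 in wild type and TLR4-/-, an effect of 0.54 ± 0.13 that did not pass (limma adjusted p = 0.117). Its relative Ifih1, which encodes the long double-stranded RNA sensor MDA5, read 8.04 and 8.68 untreated and 8.59 and 9.12 at day 4. The groups overlapped for Ifih1, because untreated TLR4-/- was above day 4 wild type. Dhx58, the third helicase of this family and a modulator of the other two, was dim, at 5.17 and 5.26 untreated and 5.86 and 5.81 at day 4.

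Among the transcription factors, Irf7 rose and the subunits Irf9 and Stat2 were higher without passing. Irf7, the factor that amplifies interferon production, read 7.67 in untreated wild type, 7.76 in untreated TLR4-/-, 8.48 in day 4 wild type and 8.61 in day 4 TLR4-/-. Its differences of 0.81 in wild type and 0.85 in TLR4-/- were nearly the same, and it rose by 0.83 ± 0.12 (limma adjusted p = 0.0442). Irf9, the DNA-binding subunit, was higher by 0.94 in wild type and by 0.55 in TLR4-/- (limma adjusted p = 0.086). Stat2, its partner, was higher by 0.53 and 0.85 (limma adjusted p = 0.0898). For both subunits the 2 day 4 arrays were above the 2 untreated ones.

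The effectors that block translation or degrade RNA spread widely, from Ifit1 at the top to Oas3 at the bottom, and 2 of the 9 rose. Ifit1, which binds the cap of foreign RNA and stops its translation, read 6.07 and 6.85 untreated and 8.34 and 8.90 at day 4 in wild type and TLR4-/-. It rose by 2.16 ± 0.13 (limma adjusted p = 0.0108), which is 4.84-fold in wild type and 4.13-fold in TLR4-/-. Its relatives moved less and did not pass: the wild-type and TLR4-/- differences were 0.74 and 0.52 for Ifit2, and 0.9997 (just short of 2-fold) and 0.46 for Ifit3. Oasl2, a member of the oligoadenylate synthetase family, read 7.26 and 7.95 untreated and 9.21 and 9.32 at day 4. It rose by 1.66 ± 0.18 (limma adjusted p = 0.0228). Oas1a, a synthetase whose product activates RNase L, was higher by 1.23 and 0.61 (limma adjusted p = 0.0821). Eif2ak2, which encodes the kinase PKR that shuts down translation, was higher by 1.05 and 0.63 (limma adjusted p = 0.068). The smallest effects of this group were those of the synthetase genes Oas2 at 0.32 ± 0.13 and Oas3 at 0.32 ± 0.16, and of Oasl1, a repressor of Irf7 translation, at 0.35 ± 0.16. Oas3 differed by 0.07 with bleomycin in wild type, against 0.56 in TLR4-/-. None of these 3 passed, and Oasl1 was higher in untreated TLR4-/- (6.48) than in day 4 wild type (6.29).

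Among the effectors against viral entry, replication and release, 2 of 5 rose. Rsad2, which encodes viperin and makes a chain-terminating nucleotide, read 5.87 and 6.61 untreated and 7.59 and 8.11 at day 4 in wild type and TLR4-/-. It rose by 1.61 ± 0.13 (limma adjusted p = 0.0143), and its 3 probe sets gave averages of 1.15 to 1.87. Cmpk2 lies next to Rsad2 in the genome and encodes a mitochondrial nucleotide kinase. It was higher by 0.65 in wild type and by 0.07 in TLR4-/-, without passing (limma adjusted p = 0.359). Bst2, which encodes tetherin and holds budding virions at the cell surface, read 8.92 and 9.05 untreated and 9.91 and 10.25 at day 4. It rose by 1.09 ± 0.13 (limma adjusted p = 0.0276). The GTPase genes Mx1 and Mx2 were dim, between 4.72 and 6.20 on every array, with effects of 0.55 ± 0.13 and 0.49 ± 0.19 that did not pass. Many inbred mouse strains carry defective Mx1 alleles, and the strain here was not given.

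The ISG15 and ubiquitin group held 3 genes that rose of 4 measured. Usp18, the protease that removes ISG15 from proteins and dampens the type I interferon receptor, read 6.44 in untreated wild type, 5.52 in untreated TLR4-/-, 8.63 in day 4 wild type and 8.87 in day 4 TLR4-/-. It was 4.57-fold higher in wild type and 10.2-fold higher in TLR4-/-, and rose by 2.77 ± 0.28 (limma adjusted p = 0.0206). Detection calls were not used here, so whether the untreated signals were above background is not known. Trim30a, which restrains Toll-like receptor signalling, read 5.47 and 6.29 untreated and 7.43 and 7.63 at day 4. It rose by 1.65 ± 0.18 (limma adjusted p = 0.0244), and Herc6, the mouse ligase that attaches ISG15, by 0.99 ± 0.12 (limma adjusted p = 0.0296). Trim25, the ubiquitin ligase of the RIG-I pathway, was bright already in untreated pools (10.78 and 10.81) and was higher by 0.30 and 0.33, without passing (limma adjusted p = 0.271).

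Parp14, a mono-ADP-ribosyltransferase, rose by 0.80 ± 0.12 (limma adjusted p = 0.048). Parp9, its interferon-induced relative, was higher by 0.54 and 0.95 (limma adjusted p = 0.0882). Cxcl10, the chemokine that draws CXCR3-bearing lymphocytes, read 6.83 and 7.36 untreated and 8.43 and 8.36 at day 4 in wild type and TLR4-/-. It rose by 1.30 ± 0.18 (limma adjusted p = 0.0369), 3.04-fold in wild type and 1.997-fold in TLR4-/-, and both day 4 pools ended at nearly the same level.

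The remaining interferon-induced genes held the largest effect of all members. Ifi27l2a, a small mitochondrial and nuclear envelope protein gene of the ISG12 family, read 8.10 in untreated wild type, 9.14 in untreated TLR4-/-, 11.78 in day 4 wild type and 11.85 in day 4 TLR4-/-. It was 12.8-fold higher in wild type and 6.56-fold higher in TLR4-/- and rose by 3.19 ± 0.24 (limma adjusted p = 0.0142). The day 4 pools were within 0.07 of each other, so the gap between these folds lay in the untreated pools. Its relative Ifi27 rose by 0.89 ± 0.13 (limma adjusted p = 0.0412), and Xaf1, an antagonist of the apoptosis inhibitor XIAP, by 0.98 ± 0.14 (limma adjusted p = 0.0442). Ifi35, whose product pairs with the interferon-induced protein NMI, and Rtp4, a chaperone of receptors with antiviral activity, were higher by 0.73 ± 0.15 and 0.72 ± 0.13 without passing (limma adjusted p = 0.0878 and 0.0642).

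**Figure D2:**
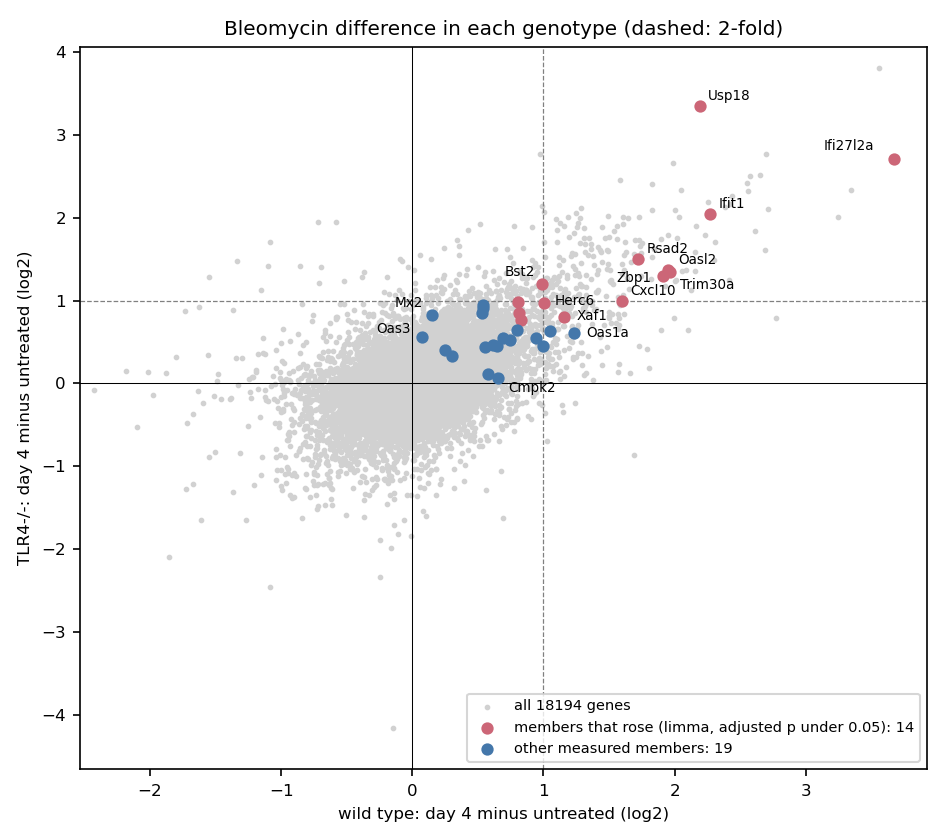
Day 4 minus untreated log2 signal in wild type (x axis) and TLR4-/- (y axis), with all 18194 genes in grey, the 14 members that rose by limma in red and the other 19 in blue; dashed lines mark 2-fold. All members lie right of and above 0, and Usp18 and Ifi27l2a lie farthest out.

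Several probe sets of one gene did not always report the same size. Of the 56 member probe sets, 52 were higher after bleomycin in both genotypes, and the share over all probe sets was not counted. In 6 of the 15 members with several probe sets, the averages over both genotypes differed by over 1 log2 unit. For Zbp1 the probe sets gave 0.57 and 2.64, for Xaf1 0.13 and 1.82, and for Rtp4 -0.04 and 1.49. The Xaf1 probe set with the small value was dim (4.37 to 4.58 on the 4 arrays). Ddx58 and Dhx58 each had 1 probe set slightly below 0, at -0.07 and -0.11, and others reaching 1.07 and 1.15. When the brightest probe set stood for each gene, Rtp4 rose by 1.49 (limma adjusted p = 0.0434) and Ifi35 by 1.05 (limma adjusted p = 0.0434). In that fit Irf7, Parp14, Cxcl10 and Ifi27 no longer passed (limma adjusted p = 0.0734, 0.0571, 0.0544 and 0.0734). Irf7 and Cxcl10 have 1 probe set each, so their effects stayed at 0.83 and 1.30. For them only the error and the adjustment, which draw on all genes, changed. The effect of Parp14 went from 0.80 to 1.02 and that of Ifi27 from 0.89 to 0.83. With the brightest probe set, the count of members at least 2-fold higher in TLR4-/- was 13 instead of 8. That of all genes was 462 instead of 342.

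**Figure D3:**
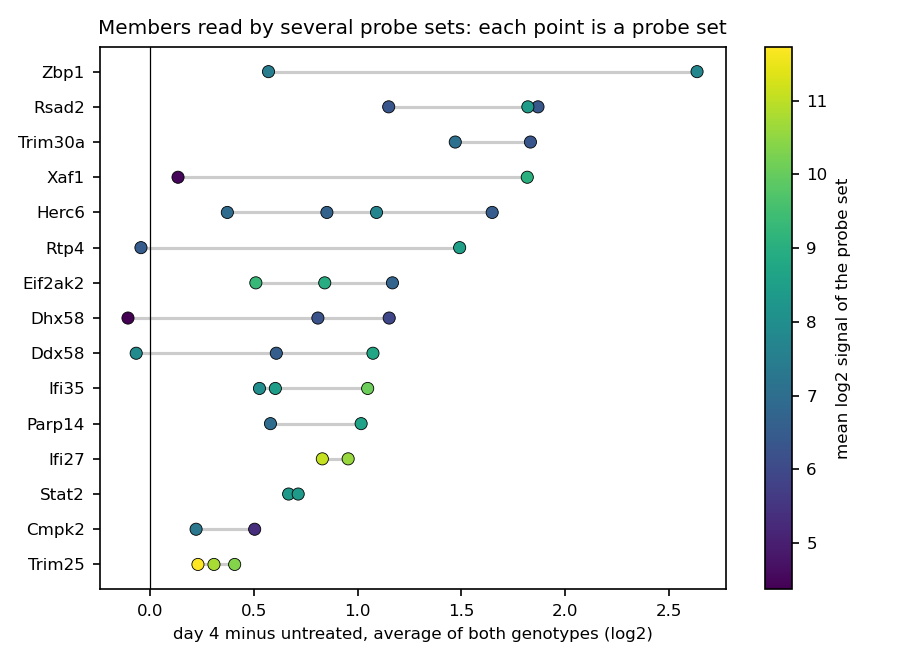
Average day 4 minus untreated difference over both genotypes (x axis, log2) for every probe set of the 15 members read by more than 1, with colour for the probe set's mean log2 signal. The probe sets of Zbp1 lie 2.07 apart, those of Stat2 0.05.

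In untreated pools, many antiviral genes were higher in TLR4-/- than in wild type. The difference was above 0 for 26 of the 33 members, against 53.6% of all genes, with a member median of 0.28 and a median of 0.02 over all genes. By probe set, 37 of 56 were higher, and the share over all probe sets was not counted. Probe sets of one gene could disagree, at 0.21 and 1.07 for Zbp1 and at -0.41 and 0.80 for Rtp4. At least 2-fold higher was 1 member, Ifi27l2a by 1.03 (0.731% of all genes), a call that quantile normalization ended. At least 1.5-fold higher, a threshold chosen after the values were seen, were 11 members (4.18% of all genes). These were Ifi27l2a, Ifit3 (0.87), Trim30a (0.82), Ifit1 (0.78), Oasl1 (0.77), Oas1a (0.75), Rsad2 (0.73), Oasl2 (0.69), Ifit2 (0.67), Ifih1 (0.65) and Zbp1 (0.64). The opposite direction was clearest for Usp18, which differed by -0.92 in untreated TLR4-/- and was the only member at least 1.5-fold lower (2.36% of all genes). Oas3, Stat2, Parp9 and Mx2 differed by -0.46, -0.44, -0.43 and -0.34. With 1 pool per genotype, a difference between pools and an effect of the genotype cannot be told apart.

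The untreated TLR4-/- pool sat between the untreated wild-type pool and both day 4 pools for 24 of the 33 members, as it did for 14.4% of all genes. That order requires both day 4 arrays to lie above both untreated ones. Where this held, the order was seen for 24 of 31 members and 2613 of 4198 genes. Ifitm3, which restricts viral entry and is not a member, showed the same order, at 9.95 in untreated wild type, 11.15 in untreated TLR4-/- and 12.36 and 12.39 at day 4. Genes of other cells differed between the same 2 untreated pools. The eosinophil and alveolar macrophage receptor gene Siglecf read 4.79 in wild type and 7.08 in TLR4-/-, and the T cell genes Cd3e and Cd8a were higher by 1.53 and 1.54. The B cell gene Cd79a and the cytotoxic granule gene Gzma differed by -1.54 and -1.46, and the lymphocyte list had a median of 0.06. The mesothelial genes Gpm6a and Upk3b differed by -2.15 and -1.51. The fibroblast and mesothelial list had a median of -0.43 and the airway list one of -0.475. In the airway list, 4 of 10 genes were at least 2-fold lower (0.462% of all genes) and 0 at least 2-fold higher. The 4 were Bpifa1 (-1.83), Scgb3a1 (-1.65), Cyp2f2 (-1.54) and Scgb3a2 (-1.49). The macrophage and monocyte markers had a median of 0.09 there and mean log2 signals of 7.005 and 7.22. The part of these cells in the untreated difference of the antiviral genes was not tested.

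At day 4 the genotypes were about as close in these genes as in all genes. The median size of the difference, regardless of sign, was 0.131 for the members and 0.127 over all genes. In untreated pools these sizes were 0.426 and 0.169. The difference was above 0 in TLR4-/- for 25 of 33 members (48.1% of all genes), with a median of 0.13 against -0.01 over all genes. No member (0 of 33) was at least 2-fold higher (0.0989% of all genes) or lower (0.0495%), and 1, Ifi35 by 0.62, was at least 1.5-fold higher (1.39% of all genes). Ifit1 followed at 0.55, Ifih1 at 0.53 and Rsad2 at 0.52. The lowest member was Cmpk2 at -0.21. The genotype difference was smaller in size at day 4 than untreated for 27 of the 33 members and for 58.8% of all genes.

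**Figure D4:**
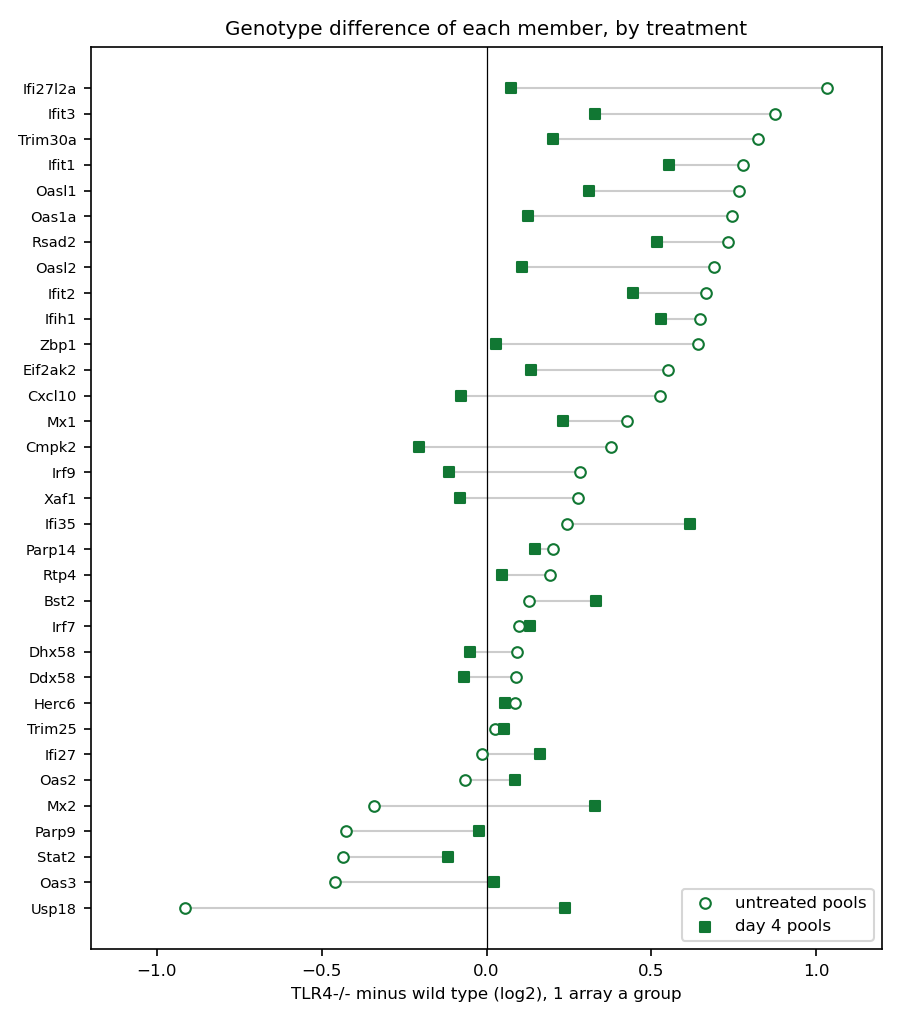
TLR4-/- minus wild type log2 difference (x axis) of each measured member in untreated pools (open circles) and day 4 pools (filled squares), 1 array a group. The untreated values run from -0.92 for Usp18 to 1.03 for Ifi27l2a, and the day 4 values from -0.21 to 0.62.

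Across both treatments limma called 0 members and 0 genes for genotype. An unadjusted limma p under 0.05 was found for 9 of the 33 members and 7.02% of all genes, and the lowest adjusted p of any gene was 0.693. The members with the largest genotype effects were Ifit1 at 0.67 ± 0.13, Rsad2 at 0.63 ± 0.13, Ifit3 at 0.60 ± 0.17 and Ifih1 at 0.59 ± 0.13 (limma, higher in TLR4-/- in 2 of 2 treatments, adjusted p = 0.693 each). The bleomycin difference was smaller in TLR4-/- than in wild type for 22 of the 33 members and 54.7% of all genes, with a median gap of -0.16 against -0.03 over all genes. Usp18 went the other way, with a response larger by 1.15 in TLR4-/-, the only member with a gap of at least 2-fold (0.868% of all genes had one in that direction). This gap shares the untreated arrays with the untreated genotype difference, so the 2 are not separate observations, and with 4 arrays it leaves no residual degree of freedom for a test.

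Genes upstream of the response were read against the 1.75% of all genes that rose, a share at which lists of this size give few calls or none. None of the 9 interferon ligand genes measured passed the limma test in either direction (0 of 9, and 0 at an unadjusted p under 0.05). Their signals lay between 3.65 and 8.43. All 9 were type I genes, and no type III ligand gene of the list was measured. Ifnb1, the early type I interferon of epithelial cells, read 5.00 and 5.12 untreated and 4.94 and 5.39 at day 4 in wild type and TLR4-/-. Ifng, the type II interferon of lymphocytes, was dim on every array, between 4.37 and 4.64. Of the 9 receptor and JAK kinase genes, 0 passed. The 1 with an unadjusted limma p under 0.05 was the kinase gene Jak2, which was lower by 0.54 ± 0.16. Ifnar1, a receptor chain for type I interferon, was higher by 0.27 ± 0.12, and Ifnlr1, the epithelial receptor chain for type III interferon, by 0.31 ± 0.12. Among 14 genes of nucleic acid sensing and interferon induction, Sting1, the adaptor for cytosolic DNA, rose by 0.82 ± 0.12 (limma adjusted p = 0.0459) and no other passed. Among 11 negative regulators, the RNA-editing enzyme gene Adar rose by 0.91 ± 0.12 (limma adjusted p = 0.0348) and no other passed.

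Other interferon-inducible genes rose in part. Of 45 measured, 9 rose and 0 fell by limma, and the median difference was 0.41 in wild type and 0.45 in TLR4-/-. Ifi207 and Ifi204, members of a DNA-binding protein family, rose by 1.89 ± 0.13 and 1.31 ± 0.12. Ifitm3 rose by 1.83 ± 0.28, Lgals3bp by 1.63 ± 0.20, the guanylate-binding protein gene Gbp2 by 1.41 ± 0.12 and the growth regulator Slfn2 by 1.40 ± 0.16. Slfn4, Parp12 and Gbp3 completed the 9. Of 10 targets of interferon gamma, 2 rose, Cd274 (the checkpoint ligand PD-L1) by 1.07 ± 0.12 and the immunoproteasome gene Psmb9 by 1.02 ± 0.15. The chemokine genes Cxcl9 and Cxcl11, which share a receptor with Cxcl10, were dim and differed by 0.16 ± 0.12 and -0.08 ± 0.12 without passing.

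**Figure D5:**
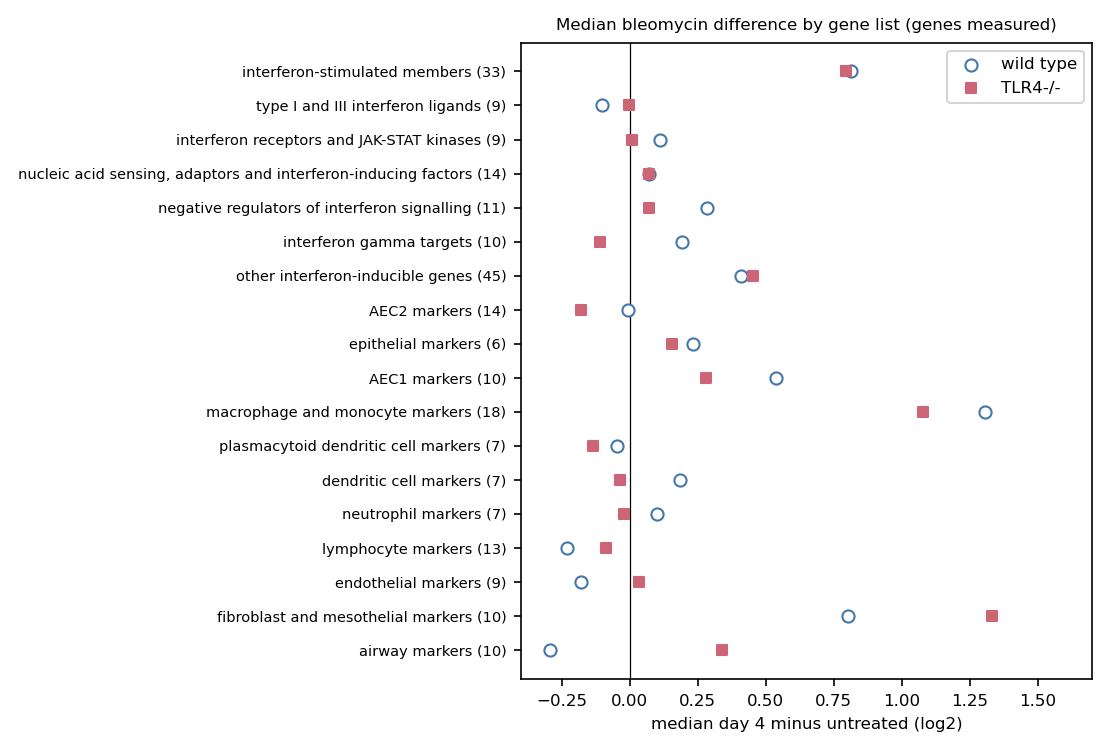
Median day 4 minus untreated log2 difference (x axis) of each gene list in wild type (open blue circles) and TLR4-/- (filled red squares), with the number of genes measured in brackets. The 33 members have medians of 0.81 and 0.80, the macrophage and monocyte markers 1.31 and 1.08, and the measured interferon ligands, all of type I, -0.10 and -0.002.

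Markers of some other cell types moved beside the antiviral genes. Of 7 neutrophil, 13 lymphocyte, 7 dendritic cell and 10 airway markers, 0 passed limma in either direction. An unadjusted limma p under 0.05 was found for 0, 3, 0 and 2 of them. Of 18 macrophage and monocyte markers, 10 rose and 0 fell by limma. Their mean log2 signal was 7.005 in untreated wild type, 7.22 in untreated TLR4-/-, 8.33 in day 4 wild type and 8.58 in day 4 TLR4-/-. The complement gene C1qb of tissue macrophages rose by 2.73 ± 0.12 and the integrin gene Itgax by 2.12 ± 0.17, while Ptprc, expressed by all leukocytes, differed by 0.53 ± 0.19 without passing. Of 10 fibroblast and mesothelial markers, 4 rose (Col1a1, Col1a2, Col3a1 and Msln). Of 10 markers of type I alveolar cells, which form the gas exchange surface, 3 rose, Pdpn by 2.30 ± 0.13, Akap5 by 1.82 ± 0.14 and Cav1 by 1.09 ± 0.16. Of 6 epithelial markers, 1 rose, the keratin gene Krt19, by 0.996 ± 0.14. Of 9 endothelial markers, 1 fell, Pecam1, by 0.95 ± 0.14. The endothelial list had a median difference of -0.18 in wild type and 0.04 in TLR4-/-. Of 14 AEC2 markers none passed (0 of 14, 1 with an unadjusted limma p under 0.05), and their mean log2 signal ran from 12.31 to 12.53 over the arrays. Of the 6 measured markers of plasmacytoid dendritic cells other than Bst2, 0 passed, and the defining gene Siglech read 7.12 and 6.74 untreated and 7.06 and 6.78 at day 4. Without detection calls, no marker can be called absent. In these bulk pools, fewer cells of a type and less RNA per cell cannot be told apart. Macrophages make the same antiviral genes, and their part in the result was not tested. Sex-linked genes also moved with treatment. The Y-linked gene Eif2s3y rose from 6.82 and 6.86 untreated to 8.85 and 8.87 at day 4, and the Y-linked genes Kdm5d and Uty rose by 1.15 ± 0.13 and 0.83 ± 0.13 (limma adjusted p = 0.0266 and 0.048). Xist, transcribed from the inactive X chromosome, differed by -0.62 in wild type and -1.27 in TLR4-/- without passing (limma adjusted p = 0.082). The sex of the mice is not given, and the part of sex in the result was not tested.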

How the data were processed

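Sorted AEC2 RNA from 4 pools was hybridised to Affymetrix 3' arrays, 1 array a group. The authors deposited 1 value per probe set, read here as log2 signal from the range (3.07 to 14.55) and the like quantiles of the columns; summarisation and normalization are not given in the sources used here. Of 45101 probe sets, 34958 carried 1 symbol, 932 several and 9211 none (64 of these controls). Symbols were updated through RefSeq Entrez identifiers for 34754. Probe sets were averaged per gene. No filter on dim genes was applied, so that the 11 members with a mean below the median gene (7.05) stayed in; 22 lay above it. Differences between single arrays have no test and a 2-fold threshold. limma 3.58.1 (R 4.3.3; lmFit, eBayes) fitted treatment and genotype additively over all 18194 genes, with 1 residual and 4.45 prior degrees of freedom, and Benjamini-Hochberg adjustment called under 0.05. Its error, an SD of 0.192 for a difference between 2 arrays, rests on disagreement between the 2 genotypes' responses, not on replicates. The number of arrays limits the precision. The members and lists were chosen with earlier results of these data known. All members are named; of other lists, genes called by limma or different by 2-fold, at most the 6 largest, together with receptor and ligand genes. Ptprc, Siglech, Cxcl9, Cxcl11, Jak2 and the sex-linked genes were added after their values were seen. Alternatives were a brightness filter, the probe set of highest mean, median centring, quantile normalization, a trended robust prior, treatment alone and leaving out each array.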

Additional observations from a re-analysis of the deposited data

Results flagged for a closer look

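Usp18, Mx2 and Cmpk2 had genotype differences of opposite sign untreated and at day 4, each larger than the 0.192 that limma's prior gives as the SD of a difference between 2 arrays. The difference between the treatments was not tested, since each value rests on 1 pair of arrays. Such reversals were looked for among the members only, and their share over all genes was not counted. Usp18 differed (TLR4-/- minus wild type) by -0.92 untreated and by 0.24 at day 4. Mx2 went from -0.34 to 0.33 at dim signals. Cmpk2 went from 0.38 to -0.21, and its 2 probe sets read -0.36 and -0.06 at day 4.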

How the results depend on the processing

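No paired analysis was possible because each group had 1 array with no replicate number in the labels. The bleomycin effect was above 0 for every member under every alternative run, except 1 uncalled member without the untreated wild-type array. With all 4 arrays, genotype effects took the opposite sign for 2 members with the brightest probe set, 2 after quantile normalization and 1 after median centring. Of 33 members, 22 took the opposite sign without untreated wild type and 20 without day 4 TLR4-/-. The numbers were 5 without untreated TLR4-/- and 3 without day 4 wild type. These 3-array genotype fits have no treatment term, so the bleomycin difference enters them. They cannot show whether the genotype effects are stable. Of the 14 members that rose, 14 also rose after median centring and after quantile normalization, 13 with a trended robust prior, 10 with the brightest probe set per gene and 10, all that passed it, with the brightness filter; 3 rose in a fit of treatment alone. Leaving out 1 array gave 0 to 19 members that rose: 10 without untreated wild type, 19 without untreated TLR4-/- and 0 without either day 4 array. For all genes it gave 0 to 573 that rose and 0 to 175 that fell, against 319 and 48 with 4 arrays. These fits have no genotype term, and a lone array is assumed to vary like the other arm. Over all genes, 653 rose and 230 fell with the brightness filter, which tests fewer genes, and 103 and 15 with treatment alone. The genes that fell numbered 23 with the brightest probe set, 93 after quantile normalization and 83 with the trended robust prior. The brightness filter left 223 genes at 2-fold higher in TLR4-/- after bleomycin instead of 342, and 71, 4 and 61 instead of 133, 18 and 158 for the untreated genotype difference, the day 4 one and the gap between responses. It left 7 of the 11 members at 1.5-fold higher in untreated TLR4-/-, with 504 of 761 genes there and 137 of 252 at day 4. The brightest probe set gave 219, 34 and 254 genes for those same 3 differences, 410 at 1.5-fold at day 4, 13 members at 2-fold higher in TLR4-/- after bleomycin, and 2 members at 2-fold higher in untreated TLR4-/- with a member median of 0.49. Quantile normalization left 0 such members. The cause of the shifts without a filter was not tested.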
